A study of Mus musculus with 11 samples.

Results

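The data compared brain vessels of PBS-treated mice at 24 h with those at 3 h after occlusion of the middle cerebral artery (MCAO), a stroke model in which the artery that feeds much of one brain hemisphere is blocked. All mice were adult male C57BL/6 animals, and vascular fragments of the hemisphere on the occluded side were taken as total RNA for expression arrays. The comparison used every array whose labels gave PBS treatment, 3 at 24 h and 3 at 3 h, which makes 6 of the 11 arrays of the study. The other 5 came from mice given imatinib, a kinase inhibitor, with 3 arrays at 24 h and 2 at 3 h. Mice of the 3 h groups had received PBS or imatinib 3 times before the occlusion, and mice of the 24 h groups had received a 4th treatment. The times therefore differed by 1 injection as well as by the hours after occlusion, and the part of that injection cannot be told apart from time. No vessels without occlusion were analysed here, so each difference is one between a late and an early time and not a change from the healthy state. The labels did not say whether replicates were separate animals or pools, and the p-values measure the spread between these arrays, which may in part be technical.

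A brain vessel is built of endothelial cells joined by tight junctions, with pericytes on the capillaries and smooth muscle on the arteries, and its wall excludes most blood-borne molecules and cells from the brain. After an artery is blocked, vessel cells pass through an early wave of stress-induced transcription factors. Blood leukocytes then adhere and enter, and vessel cells prepare for repair and growth, which needs ribosomes, nucleotides, protein folding and DNA replication.

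Every value below is a log2 signal of the deposited table, in which 1 unit is a doubling, and every difference is PBS 24 h minus PBS 3 h ± its standard error in limma with 3 arrays at each time. "Rose" and "fell" are used of genes with an adjusted p under 0.05, adjusted over all 30790 genes. The median signal of an array lay between 5.17 and 5.25 over the 11 arrays. The defining endothelial genes were bright: Pecam1, an adhesion molecule of endothelial junctions, had 11.40, 11.21 and 11.20 at 24 h, against 11.31, 11.45 and 11.52 at 3 h. The times overlapped for Pecam1, with a difference of -0.15 ± 0.10 (adjusted p = 0.369 in limma). Correlations across genes lay between 0.9876 and 0.9912 within a PBS group and between 0.9721 and 0.9783 across the times. The first principal component of the 6 PBS arrays held 57.4% of their variance and set the times apart, at 35.4, 29.8 and 40.3 for 24 h and -36.1, -33.0 and -36.4 for 3 h. On the second component, with 13.4%, PBS 3 h replicate 1 stood apart at 33.7.

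A large share of the genes measured in the vascular fragments differed between the times. In limma 16.6% of the 30790 genes passed the threshold, 9.34% higher and 7.28% lower at 24 h, which makes 2877 and 2242 genes. Of these calls, 881 were at least 2-fold, 557 of them higher and 324 lower. Calls were uneven over signal levels. Among the 13892 genes above the array median on all 6 PBS arrays 17.8% were higher and 13.6% lower, whereas 1.99% of the 13497 genes below it on all 6 arrays were called. Counts in a list of bright genes are therefore best read beside the shares for bright genes. Each single array mattered to the total: leaving out 1 of the 11 arrays gave 3886 to 4973 calls, and 3233 genes were called without every one of them in turn.

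Among the 24 largest rises that passed the naming rule, Cxcl3, a chemokine gene, and Msr1, a scavenger receptor gene, came first with 5.59 ± 0.46 and 5.57 ± 0.21. The 3 h signals of Cxcl3 (3.40, 3.57 and 3.74) lay below the lower quartile of their arrays, which limits how exactly its rise can be sized. Apln, which codes for apelin, a peptide of endothelial tip cells, had 10.24, 9.45 and 10.03 at 24 h, against 6.01, 6.08 and 5.46 at 3 h (4.05 ± 0.27, adjusted p = 5.57e-06 in limma). Arg1, the arginase that marks reparative macrophages, had 8.16, 8.39 and 9.34 at 24 h, against 4.39, 4.74 and 4.93 at 3 h (3.94 ± 0.28, adjusted p = 7.06e-06 in limma). Lpl, lipoprotein lipase, had 10.47, 10.09 and 10.32 at 24 h, against 6.59, 7.03 and 7.18 at 3 h (3.36 ± 0.20). Arrays of the times did not overlap for Apln, Arg1 or Lpl, which the naming rule required, and for 29.8% of all genes. Stfa2l1, a stefin of the neutrophil lineage, Plbd1, Wfdc17, Ifitm6 and Clec4d rose by 3.79 ± 0.44, 3.42 ± 0.25, 3.37 ± 0.24, 3.22 ± 0.24 and 3.24 ± 0.33. The falls reached less far. Serpina3f, a serine protease inhibitor gene, fell by 3.40 ± 0.28, and Trp53inp1 and Zbtb16 fell by 3.19 ± 0.22 and 3.12 ± 0.25. Rasd1 fell by 2.82 ± 0.26, and Asb4 fell by 2.76 ± 0.15. Ndrg1, a stress-induced gene, had 8.93, 9.42 and 9.06 at 24 h, against 11.34, 11.09 and 11.38 at 3 h (-2.13 ± 0.13, adjusted p = 3.76e-06 in limma). Map3k6, a stress kinase of the MAP kinase cascade, fell by 2.10 ± 0.13, Fam107a, an actin-binding stress gene, by 1.91 ± 0.10, and Dapk1, a death-associated kinase, by 1.85 ± 0.12. Xdh, xanthine dehydrogenase of purine breakdown, had 7.53, 8.22 and 7.90 at 24 h, against 9.74, 10.17 and 10.35 at 3 h (-2.21 ± 0.18).

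**Figure D1:**
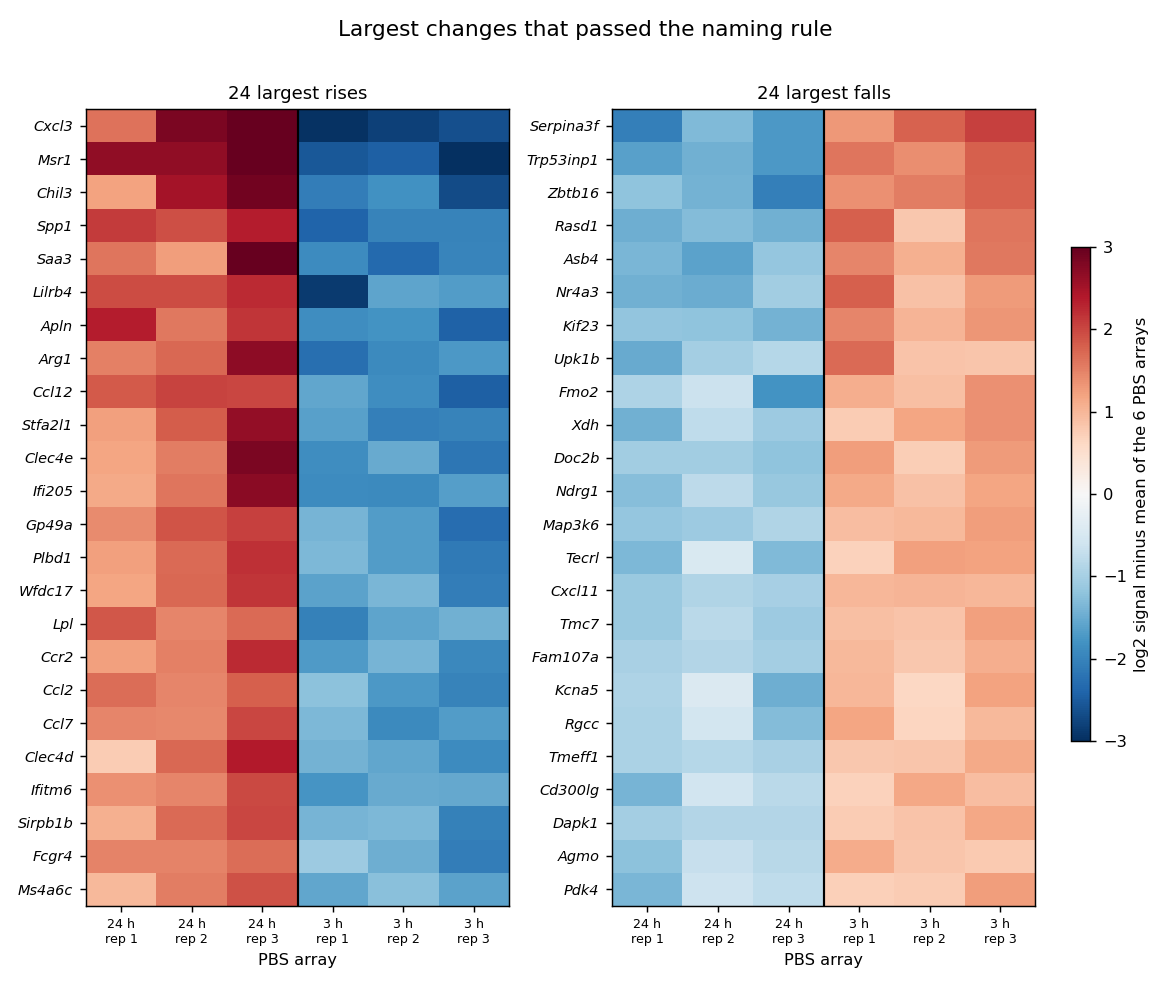
The heat maps show the 24 largest rises (left) and the 24 largest falls (right) among genes that passed the naming rule, as the log2 signal on each PBS array minus the gene's mean over the 6 arrays, with 24 h arrays left of 3 h arrays. Each gene has 1 sign on the 24 h arrays and the opposite sign on the 3 h arrays, and the rises reach further from the mean than the falls.

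Markers of some of the cell types that a vascular fragment can hold moved with time. Of 11 monocyte markers 9 rose and none fell (median 1.95), and their mean signal lay between 8.37 and 9.08 on the 24 h arrays, against 6.66 to 6.86 on the 3 h arrays. Of 8 border macrophage markers 4 rose, such as F13a1 (1.68 ± 0.18), with means of 6.97 to 7.29 at 24 h, against 6.41 to 6.59 at 3 h. Of 15 neutrophil markers 4 rose and 11 were not called, with a median of 0.03. S100a9, a calcium-binding protein of granulocytes, was among the rises, with 10.69, 11.19 and 11.58 at 24 h, against 10.18, 9.39 and 8.73 at 3 h (1.72 ± 0.33). Microglial markers went both ways: Fcrls rose (0.62 ± 0.12), Siglech fell (-0.83 ± 0.16), and of the 12 genes 2 rose and 2 fell, with 1 to 4 falls when single PBS arrays were left out (4 without 3 h replicate 3, and 1 without 24 h replicate 1 or 3 and without 3 h replicate 1 or 2). Of 10 T and NK cell markers 1 rose, or 2 without PBS 3 h replicate 1. Of 8 B cell markers 1 rose, or 0 without PBS 24 h replicates 1 or 3 and 2 without PBS 3 h replicates 1 or 3. With all arrays 10.0% of T and NK cell markers and 12.5% of B cell markers rose, against 9.34% of all genes. The microglial shares were 16.7% higher and 16.7% lower, against 17.8% and 13.6% of the bright genes. Microglial, T and NK cell and B cell lists were thus near the background.

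Many markers of endothelial cells and pericytes were lower at 24 h. Of 18 endothelial markers 10 fell and none rose (median -0.46), with means of 10.31 to 10.52 on the 24 h arrays, against 10.85 to 11.01 on the 3 h arrays. In such bulk samples fewer cells of a type and less RNA per cell cannot be told apart. Pltp, a phospholipid transfer protein made by brain endothelium, had 11.25, 11.36 and 10.86 at 24 h, against 12.18, 12.16 and 12.20 at 3 h (-1.02 ± 0.13). Claudin 5, Cldn5, the main sealing protein of the barrier, had 10.28, 9.87 and 10.12 at 24 h, against 10.37, 10.49 and 10.56 at 3 h, a fall of 0.39 ± 0.12 that stood close to the threshold (adjusted p = 0.0477 in limma) and was lost without 24 h replicate 2 or 3, any 3 h replicate of PBS vessels or any imatinib 24 h replicate (-0.44 to -0.27, adjusted p between 0.0533 and 0.166).

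Pericyte markers followed the same direction, with 8 of 13 lower and none higher (median -0.64), and means of 8.31 to 8.57 at 24 h, against 8.79 to 9.25 at 3 h. Rgs5, a regulator of G protein signalling that marks pericytes, had 11.41, 11.30 and 11.36 at 24 h, against 12.04, 12.28 and 11.93 at 3 h (-0.73 ± 0.10, adjusted p = 0.000497 in limma). Higd1b fell by 0.93 ± 0.13, and Pdgfrb, the PDGF receptor of pericytes, fell by 0.60 ± 0.17, a call lost without any PBS 24 h replicate or PBS 3 h replicate 2 (-0.65 to -0.38, adjusted p between 0.0564 and 0.110 in limma). Smooth muscle was less even: 4 of 11 markers fell (median -0.59), Smtn (-0.95 ± 0.14) and Mylk (-0.79 ± 0.17) among them. Acta2, smooth muscle actin, had 10.35, 10.62 and 9.73 at 24 h, against 11.33, 10.47 and 10.66 at 3 h, which overlapped (-0.59 ± 0.25, adjusted p = 0.156 in limma). Of 10 perivascular fibroblast markers 1 rose and 1 fell (median -0.09). Each share is 10.0%, near the 9.34% higher and 7.28% lower of all genes. The rises were 2 without PBS 3 h replicate 2, and the falls were 0 without PBS 24 h replicate 1 and 2 without imatinib 24 h replicate 2.

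Signals of brain tissue were present and in part moved as well. Of 13 astrocyte markers 8 fell, and Gfap, the filament of reactive astrocytes, rose with 7.36, 6.90 and 7.43 at 24 h, against 5.74, 6.30 and 5.55 at 3 h (1.37 ± 0.23). The count of falls was 4, 3, 2 and 4 without PBS 24 h replicate 1, 24 h replicate 2, 3 h replicate 1 and 3 h replicate 2. The myelin genes Mbp (-1.35 ± 0.30) and Mobp (-1.08 ± 0.19) were the 2 of 10 oligodendrocyte markers that fell. Of 8 choroid plexus markers none passed the limma threshold with all arrays, 3 passed as lower without PBS 24 h replicate 2, and their mean signal was uneven within each time (6.47, 7.77 and 7.03 at 24 h, against 7.47, 8.26 and 7.79 at 3 h). Erythroid genes rose in 3 of 7 cases, Hbb-b2, a beta globin, among them (0.75 ± 0.14).

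**Figure D2:**
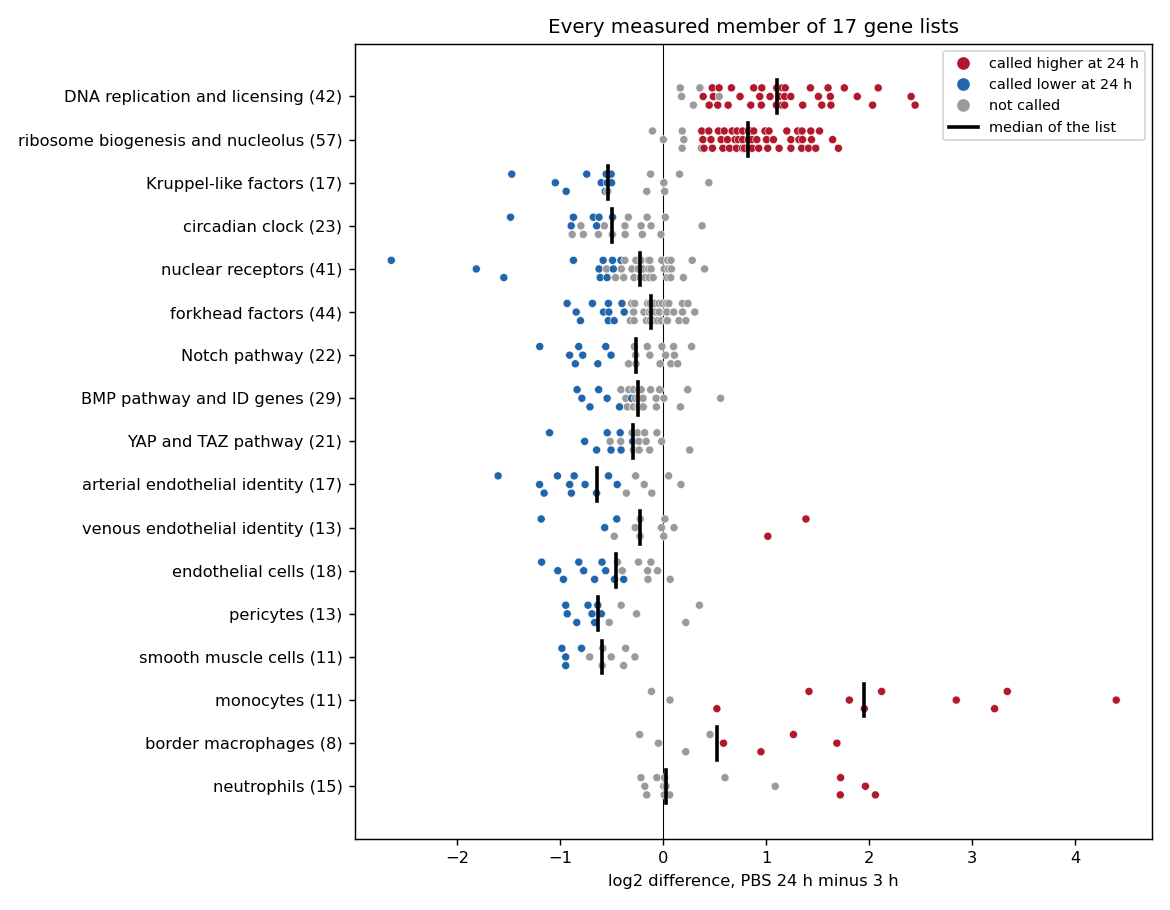
Each point is 1 measured gene of 17 lists at its log2 difference, PBS 24 h minus 3 h, coloured by its call, and the black bar is the median of the list. The medians of the replication and ribosome biogenesis lists lie right of 0, at 1.10 and 0.83. Those of the regulator and vessel lists lie left of it, though most of these lists have members on both sides. Monocyte markers reach 4.40.

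Genes for making ribosomes and proteins rose together. Of 57 ribosome biogenesis genes 51 rose and none fell, with a median of 0.83, against -0.02 over all genes. Utp20, a scaffold of the small subunit processome, had 7.88, 7.55 and 7.77 at 24 h, against 5.89, 6.11 and 6.10 at 3 h (1.70 ± 0.11, adjusted p = 4.1e-06 in limma). Nhp2, a core protein of the H/ACA particles that modify ribosomal RNA, had 8.18, 8.08 and 8.21 at 24 h, against 6.51, 6.28 and 6.75 at 3 h (1.64 ± 0.14). The 24 h arrays lay above the 3 h arrays by more than 1 unit for both. Ftsj3, a processing factor of ribosomal RNA, rose by 1.52 ± 0.14. The count of risers lay between 46 and 51 when each array was left out.

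Genes that charge tRNA, fold proteins and break them down rose as well. Of 20 cytosolic aminoacyl-tRNA synthetases 16 rose (median 0.68), among them Farsb (1.12 ± 0.12) and Dars (1.03 ± 0.11), which charge phenylalanine and aspartate. Of the 8 subunits of the CCT chaperonin, which folds actin and tubulin, 8 rose (median 0.88). Cct3 had 8.11, 8.05 and 8.27 at 24 h, against 6.83, 6.99 and 6.98 at 3 h (1.21 ± 0.10). Of 38 proteasome subunits 28 rose (median 0.50), the largest rise being 0.86. Psmd14, the deubiquitinase of the proteasome lid, had 9.31, 9.32 and 9.41 at 24 h, against 8.56, 8.45 and 8.45 at 3 h (0.86 ± 0.09), a gap far wider than the spread at either time.

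Mitochondrial ribosomal proteins rose in 57 of 75 cases and fell in none (median 0.52), Mrpl52 the most among those that passed the naming rule (1.37 ± 0.10). Cytosolic ribosomal proteins moved less, with 29 of 71 higher and a median of 0.28. Rpl29 (2.09 ± 0.20) and Rpsa (1.17 ± 0.10) rose, but many of these genes have near-identical pseudogene copies that a probe set may also detect, so single members are uncertain. Among 54 translation initiation factors 21 rose, Eif3i, a subunit of the eIF3 complex, among them (0.98 ± 0.10), and 2 fell. One of these was Eif2ak4, the kinase that senses uncharged tRNA (-0.52 ± 0.13), and the count of falls was 1 without any 1 of 9 arrays.

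Many genes for the synthesis of building blocks rose in the same interval. Of 35 genes of nucleotide, folate and polyamine synthesis 27 rose and none fell (median 0.70). Atic, which closes the purine ring in the last steps of purine synthesis, rose by 2.11 ± 0.13 (adjusted p = 3.33e-06 in limma). Srm, spermidine synthase, had 9.70, 9.56 and 9.59 at 24 h, against 7.71, 7.76 and 7.98 at 3 h (1.80 ± 0.10). Shmt2, which feeds serine carbon into mitochondrial folate, had 8.76, 8.68 and 9.07 at 24 h, against 7.09, 7.05 and 6.82 at 3 h (1.85 ± 0.18). The lowest 24 h array stood more than 1 unit above the highest 3 h array for Srm and Shmt2. The ATF4 stress list did not move one way: 4 of 21 rose, Psat1 of serine synthesis (1.18 ± 0.14), Aldh18a1 of proline synthesis (1.25 ± 0.16) and Asns (0.97 ± 0.20) among them, and 3 fell, Cebpg (-0.78 ± 0.11) and the amino acid exchanger Slc7a5 (-0.72 ± 0.10) among them. Monocyte markers rose over the same interval (means of 8.37 to 9.08 at 24 h, against 6.66 to 6.86 at 3 h), and their part in the rise of these growth lists was not tested.

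**Figure D3:**
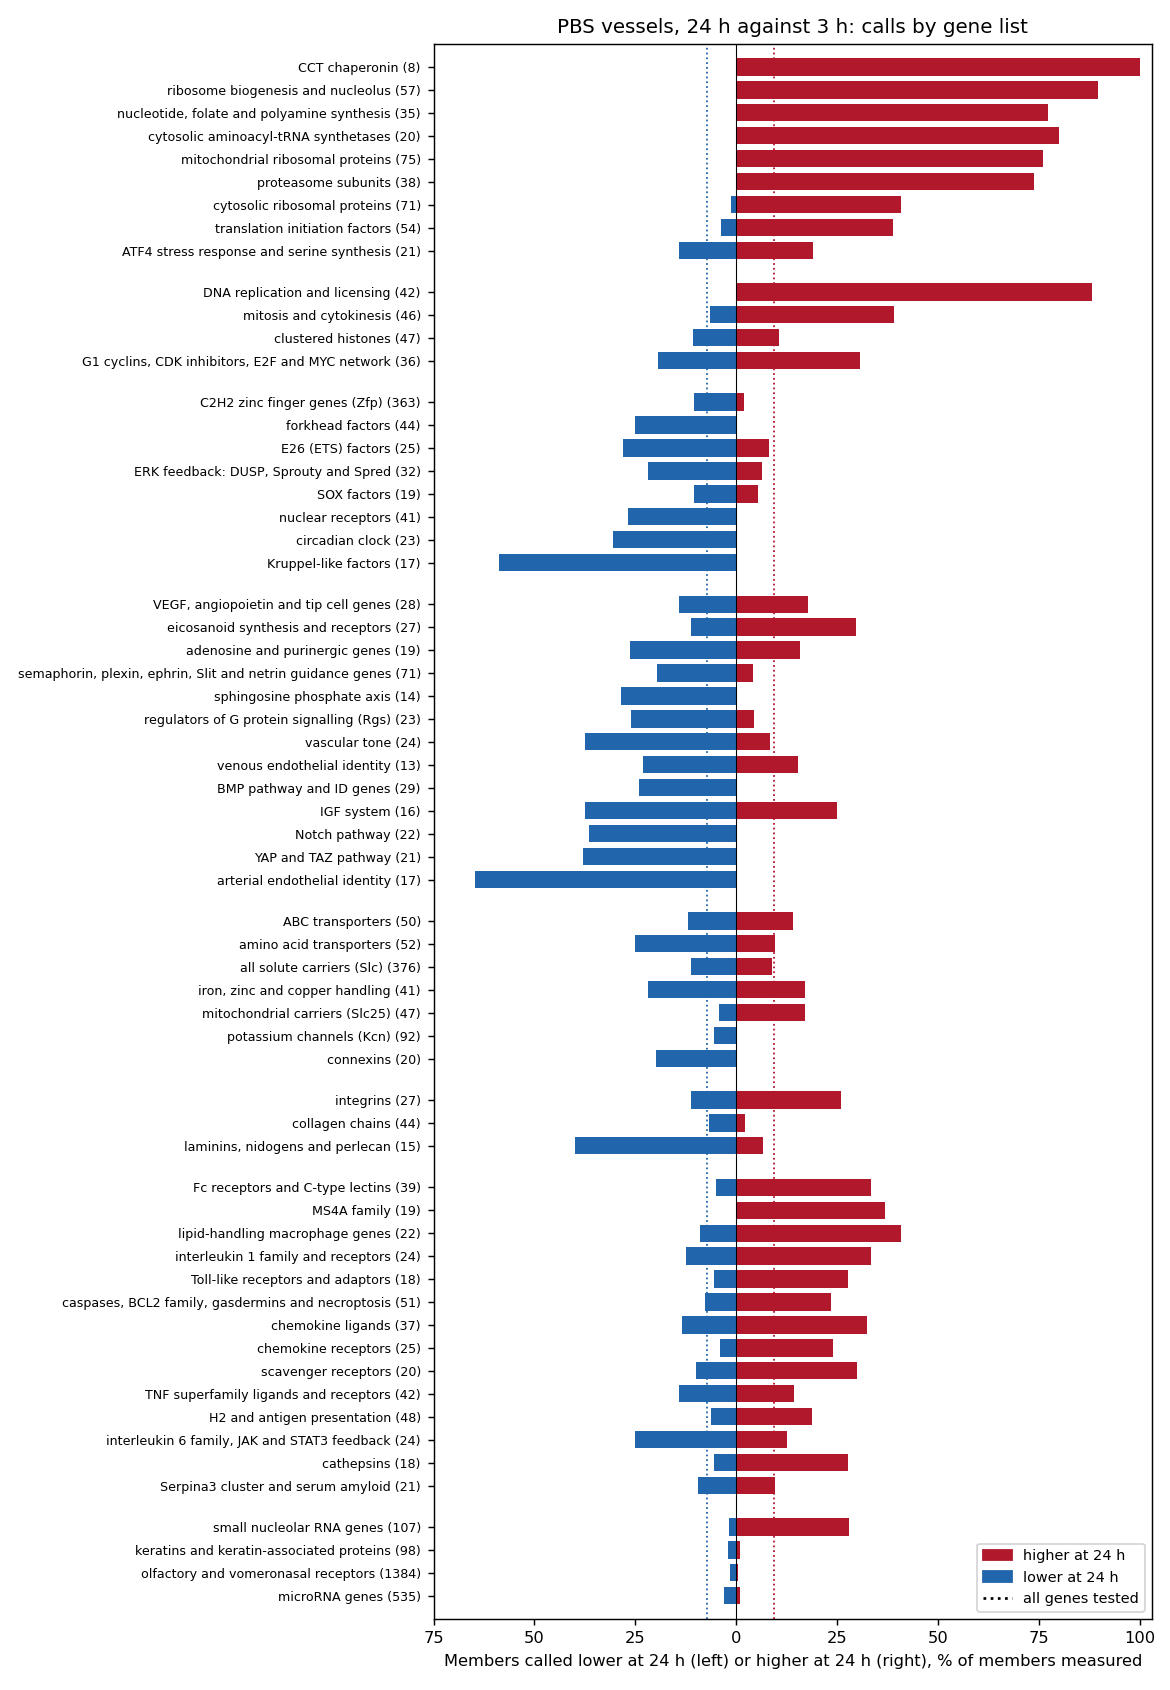
Bars give the share of measured members called higher (right) or lower (left) at 24 h for each gene list shown, with the number of members in brackets and dotted lines at the 9.34% and 7.28% of all genes. Growth and replication lists extend to the right up to 100% for the CCT chaperonin, and regulator and vessel signalling lists extend mostly to the left.

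DNA replication genes were the other group that rose nearly as a whole. Before cells copy their DNA, the MCM helicase is loaded on origins and is then activated with the GINS complex. Of 42 replication and licensing genes 37 rose and none fell, with a median of 1.10, and the other 5 (Clspn, Fen1, Gins3, Gins4 and Mcm10) had differences above 0. The genes called were 32 to 38 without each array in turn. Mcm5, a helicase subunit, had 7.56, 7.66 and 7.61 at 24 h, against 5.14, 5.29 and 5.08 at 3 h, which is 5.44-fold (2.44 ± 0.15, adjusted p = 3.56e-06 in limma). Gins1 had 6.79, 7.05 and 7.01 at 24 h, against 4.14, 4.64 and 4.85 at 3 h (2.40 ± 0.18), and Uhrf1, which directs maintenance of DNA methylation at the fork, rose by 2.09 ± 0.14. For all 3 genes the lowest 24 h array stood more than 1 unit above the highest 3 h array.

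Promoter sequences were set beside these lists, since many replication genes are known targets of E2F factors. In the RefSeq windows of build GRCm38.p6, from 250 bases before to 50 bases after each gene's start, TTTCCCGC or TTTGGCGC stood on either strand for 12 of the 33 replication genes with a window (36.4%). The share among all 27025 genes of the promoter table was 1.80%, and 2.33% among those tested here. Of the 12 replication genes with a match 11 rose, and of the 21 without one 18 rose. For the E-box CACGTG, the shares were 20.8% of 48 ribosome biogenesis genes (10 genes) and 27.8% of 18 clock genes (5 genes), against 8.09% of all genes. Of the 10 ribosome biogenesis genes with an E-box 8 rose, and of the 38 without one 34 rose. Of the 5 clock genes with an E-box 1 fell, and of the 13 without one 4 fell. The CRE motif TGACGTCA stood in 1 of 18 clock genes and 2 of 36 nuclear receptors, a share of 5.56% in each, against 2.03% of all genes, and none of these genes was called. These matches describe letters in the windows and do not show that a factor was bound. The 5 windows below are printed 5′ to 3′ with the matched letters in capitals, 3 of MCM genes for the first motif and 2 for the E-box. Mcm3 (chr1:20820263-20820562, minus strand), Mcm5 (chr8:75109259-75109558, plus strand) and Mcm6 (chr1:128359656-128359955, minus strand) code for subunits of the same helicase. Utp20 (chr10:88826765-88827064, minus strand) and Per1 (chr11:69098699-69098998, plus strand) moved in opposite directions.
Mcm3: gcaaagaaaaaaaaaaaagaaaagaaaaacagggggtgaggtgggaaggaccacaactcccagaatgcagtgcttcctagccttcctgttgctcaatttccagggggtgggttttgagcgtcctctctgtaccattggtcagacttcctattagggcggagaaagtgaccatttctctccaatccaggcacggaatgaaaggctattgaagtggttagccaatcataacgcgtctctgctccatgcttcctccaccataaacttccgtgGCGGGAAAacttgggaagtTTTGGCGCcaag
Mcm5: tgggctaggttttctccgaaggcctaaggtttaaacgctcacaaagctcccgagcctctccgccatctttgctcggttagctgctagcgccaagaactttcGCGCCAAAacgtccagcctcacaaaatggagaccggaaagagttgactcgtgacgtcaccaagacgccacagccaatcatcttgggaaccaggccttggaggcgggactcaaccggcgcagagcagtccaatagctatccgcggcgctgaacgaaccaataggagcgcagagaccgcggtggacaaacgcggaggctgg
Mcm6: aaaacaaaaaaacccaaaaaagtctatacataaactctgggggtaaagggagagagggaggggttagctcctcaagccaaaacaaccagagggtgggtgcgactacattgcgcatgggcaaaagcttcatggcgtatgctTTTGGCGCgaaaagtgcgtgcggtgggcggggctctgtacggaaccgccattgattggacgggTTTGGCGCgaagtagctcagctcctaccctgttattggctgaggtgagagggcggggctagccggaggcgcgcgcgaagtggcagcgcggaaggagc
Utp20: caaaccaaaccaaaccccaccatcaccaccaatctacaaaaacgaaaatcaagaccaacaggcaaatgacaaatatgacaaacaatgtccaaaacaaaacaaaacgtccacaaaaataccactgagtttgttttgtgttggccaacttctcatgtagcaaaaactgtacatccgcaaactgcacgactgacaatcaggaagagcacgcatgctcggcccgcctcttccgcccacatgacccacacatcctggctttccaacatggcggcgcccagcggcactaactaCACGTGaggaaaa
Per1: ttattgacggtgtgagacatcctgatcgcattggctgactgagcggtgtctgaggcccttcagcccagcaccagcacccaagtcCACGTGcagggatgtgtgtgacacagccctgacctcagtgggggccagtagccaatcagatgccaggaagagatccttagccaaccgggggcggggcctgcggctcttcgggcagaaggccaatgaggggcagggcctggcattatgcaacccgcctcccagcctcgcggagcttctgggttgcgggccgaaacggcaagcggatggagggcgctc
In Mcm3 both motifs lay after the start, and GCGGGAAA is TTTCCCGC read on the other strand, as GCGCCAAA in Mcm5 is TTTGGCGC. Mcm6 held TTTGGCGC at 2 places before its start. Mcm3 and Mcm6 were chosen for these matches after their values were seen: Mcm3 had 8.70, 8.48 and 8.50 at 24 h, against 6.64, 7.14 and 7.11 at 3 h (1.60 ± 0.16), and Mcm6 had 9.33, 9.09 and 9.11 at 24 h, against 7.41, 7.98 and 7.87 at 3 h (1.43 ± 0.15). The E-box of Utp20 lay after its start and that of Per1 before it.

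Later steps of the cell cycle moved less uniformly. Of 46 mitosis and cytokinesis genes 18 rose (median 0.46), among them the condensin subunits Smc2 (1.77 ± 0.12) and Ncapd2 (0.97 ± 0.15) and Top2a, which untangles sister DNA (1.57 ± 0.12). Of the list 3 fell, and Kif23, the kinesin of the central spindle, fell the most. It had 5.51, 5.48 and 5.28 at 24 h, against 8.14, 7.71 and 8.01 at 3 h (-2.53 ± 0.15, adjusted p = 3.27e-06 in limma), opposite to most of its list. Spc25 of the kinetochore fell by 0.70 ± 0.10. In the list of G1 cyclins, CDK inhibitors and the E2F and MYC network 11 of 36 rose and 7 fell. Myc rose, with 9.59, 9.39 and 9.56 at 24 h, against 8.32, 8.49 and 8.44 at 3 h (1.10 ± 0.13), and its antagonist Mxd4 fell, with 7.98, 8.11 and 7.55 at 24 h, against 9.40, 9.31 and 9.57 at 3 h (-1.55 ± 0.14). The CDK inhibitor genes Cdkn1b (p27) and Cdkn1a (p21) fell by 1.13 ± 0.11 and 1.02 ± 0.14, while Ccnd1, cyclin D1, rose by 1.28 ± 0.22 and Rbl1, a relative of the retinoblastoma protein, by 1.06 ± 0.17. Without PBS 24 h replicate 1, 24 h replicate 3 or 3 h replicate 1 the 11 rises were 4, 5 and 6. Clustered histone genes gave 5 rises and 5 falls among 47, with 3 rises without PBS 24 h or 3 h replicate 2 and 3 falls without PBS 24 h replicate 1 or 3 or PBS 3 h replicate 3. With all arrays each share is 10.6%, against 9.34% higher and 7.28% lower among all genes. The linker histone gene Hist1h1b had 6.35, 5.49 and 6.15 at 24 h, against 2.58, 3.06 and 3.92 at 3 h (2.81 ± 0.47), and Hist1h1c fell by 0.84 ± 0.11. The Hist1h1b signals of 2.58 and 3.06 lay below the lower quartile of their arrays.

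**Figure D4:**
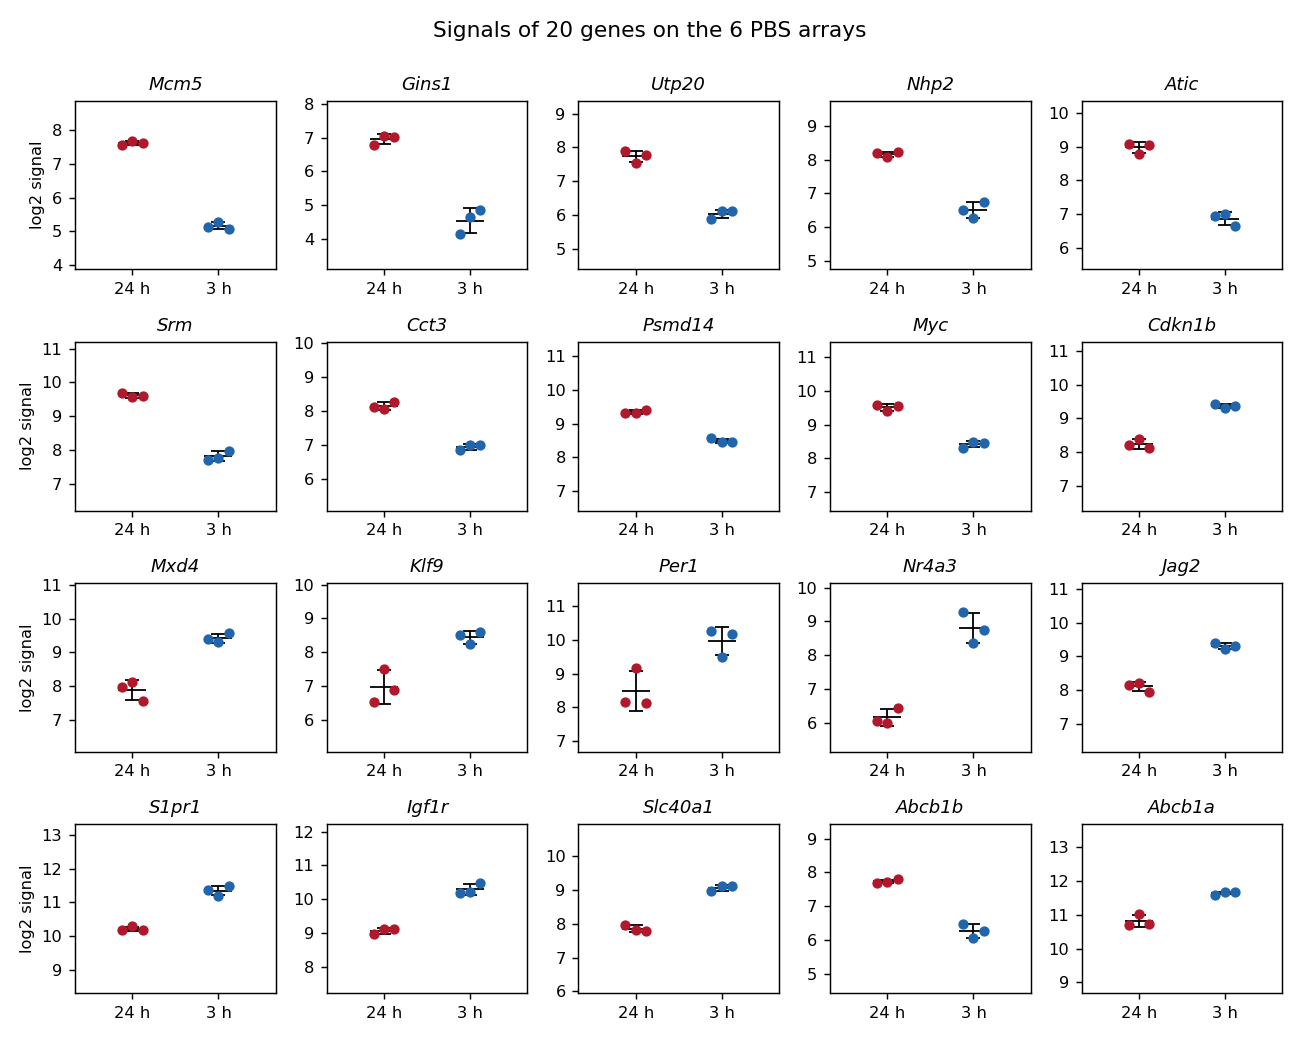
Each panel gives the log2 signals of 1 gene on the 3 PBS arrays at 24 h (left) and the 3 at 3 h (right), with the mean and the SD as bars, and the panels share 1 span of the axis. The times do not overlap in any of the 20 panels, which the naming rule required, and 29.8% of all genes did not overlap either. Per1 has a wide spread, with 8.16 to 9.16 at 24 h, against 9.48 to 10.25 at 3 h.

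Several families of transcription factors moved the other way. Of 17 Kruppel-like factors 10 fell and none rose (median -0.54). Klf9, which glucocorticoids induce, had 6.51, 7.51 and 6.88 at 24 h, against 8.50, 8.23 and 8.59 at 3 h (-1.47 ± 0.24, adjusted p = 0.00141 in limma). Klf13 (-1.05 ± 0.15) and Klf12 (-0.94 ± 0.18) fell too. Among 23 clock genes 7 fell and none rose (median -0.50), or 1 rose without PBS 24 h replicate 1. Per1, a repressor of the clock that acute stimuli also induce, had 8.16, 9.16 and 8.13 at 24 h, against 10.25, 9.48 and 10.16 at 3 h (-1.48 ± 0.30, adjusted p = 0.00463 in limma). Its neighbours in the loop Bhlhe40 (-0.89 ± 0.09) and Rora (-0.87 ± 0.10) were lower as well. Mice were kept in a 12 h light and dark cycle, but the labels gave no time of day, so the hour of sampling and the time after occlusion cannot be told apart for clock genes.

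Of 41 nuclear receptors 11 fell and none rose (7 fell without PBS 24 h replicate 3 or 3 h replicate 3). The orphan receptors of the NR4A group, which are immediate early genes, led them. Nr4a3 had 6.04, 6.00 and 6.45 at 24 h, against 9.28, 8.37 and 8.76 at 3 h (-2.64 ± 0.20, adjusted p = 1.02e-05 in limma), and Nr4a2 fell by 1.55 ± 0.17. Forkhead factors fell in 11 of 44 cases (6 without PBS 24 h replicate 3), among them Foxq1 (-0.80 ± 0.11) and Foxc1 (-0.69 ± 0.12), both expressed in brain vessels, and Foxn3 (-0.85 ± 0.10). In the ETS family 7 of 25 fell, such as Etv1 (-0.80 ± 0.15) and Ets2 (-0.55 ± 0.11), and 2 rose, or 1 without PBS 24 h replicate 3. Spi1, the PU.1 factor of myeloid cells, was higher, with 8.47, 8.55 and 8.90 at 24 h, against 8.09, 7.78 and 7.78 at 3 h (0.76 ± 0.13). Of 19 SOX factors 2 fell and 1 rose, or 0 rose without any 1 of 5 PBS arrays, and Sox17, a factor of endothelium, fell by 0.76 ± 0.17. The SOX shares are 10.5% lower and 5.26% higher, under the 13.6% and 17.8% of the bright genes, so this family did not stand out. Among 363 C2H2 zinc finger genes 38 fell and 7 rose, with 22 and 25 falls without PBS 24 h replicate 3 and 3 h replicate 2. Those shares are 10.5% and 1.93%, against 13.6% and 17.8% of the bright genes and 7.28% and 9.34% of all genes, so the falls are near the background. Zfp948 (-1.42 ± 0.17) and Zfp521 (1.21 ± 0.11) stood at the ends of those that passed the naming rule. Among 32 DUSP, Sprouty, Spred and related genes 7 fell and 2 rose. Spry1 (-1.15 ± 0.14) and Errfi1, an inhibitor of the EGF receptor (-1.18 ± 0.15), were among the falls. The rises were Spred3 (0.63 ± 0.10) and Dusp12 (0.52 ± 0.11).

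In 3 signalling pathways of the vessel wall, every gene past the threshold was lower at 24 h. Of 22 Notch pathway genes 8 fell and none rose. Jag2, a Notch ligand, had 8.16, 8.23 and 7.95 at 24 h, against 9.41, 9.21 and 9.32 at 3 h (-1.20 ± 0.11, adjusted p = 2.7e-05 in limma), and the Notch targets Hey1 and Hey2 fell by 0.91 ± 0.12 and 0.86 ± 0.16. Of 29 BMP pathway and ID genes 7 fell and none rose, with Smad7, the inhibitory SMAD (-0.79 ± 0.11), and Id3 (-0.63 ± 0.13) among them. Among 21 YAP and TAZ pathway genes 8 fell and none rose (5 without PBS 3 h replicate 3). Ctgf, a target of YAP, had 8.18, 8.48 and 8.06 at 24 h, against 8.93, 9.37 and 9.74 at 3 h (-1.10 ± 0.20), and Ptpn14 and Tead4 fell by 0.76 ± 0.12 and 0.65 ± 0.15. Each of these lists had a median between -0.30 and -0.24, against -0.02 for all genes.

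Arterial identity genes fell in 11 of 17 cases and rose in none (median -0.65, with 7 falls without PBS 24 h replicate 3). Alpl, alkaline phosphatase of arterial and capillary endothelium, had 6.32, 7.01 and 6.28 at 24 h, against 7.72, 7.74 and 7.76 at 3 h (-1.20 ± 0.19, adjusted p = 0.00134 in limma). Cytl1 fell by 1.60 ± 0.28. Stmn2, on both this list and the neuron list, fell by 1.16 ± 0.27. Venous genes were mixed, with 2 of 13 higher and 3 lower. Ctsc, a cathepsin that leukocytes also express, rose by 1.38 ± 0.10, the other rise was lost when any 24 h array or 3 h replicate 1 or 2 was left out, and Ephb4, the venous ephrin receptor, fell by 0.57 ± 0.13. Endothelial markers were lower in the same arrays (means of 10.31 to 10.52 at 24 h, against 10.85 to 11.01 at 3 h), and their part in the falls of the Notch, BMP, YAP and arterial lists was not tested.

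Several genes that set vessel tone and permeability were also lower. S1pr1, the sphingosine phosphate receptor that tightens the endothelial barrier, had 10.19, 10.29 and 10.17 at 24 h, against 11.37, 11.19 and 11.47 at 3 h (-1.13 ± 0.11, adjusted p = 4.07e-05 in limma). S1pr3 (-0.97 ± 0.12) and the lipid transporter Mfsd2a (-0.70 ± 0.11) were among the 4 of 14 genes of this axis that fell. In the vascular tone list 9 of 24 fell, among them Edn1, the constrictor endothelin 1, with 9.59, 9.64 and 9.67 at 24 h, against 10.51, 10.26 and 10.74 at 3 h (-0.87 ± 0.14). Prkg1, the kinase that relaxes smooth muscle in response to nitric oxide, fell by 1.11 ± 0.15. Its 2 rises were lost without PBS 24 h replicate 1, 24 h replicate 3 or 3 h replicate 2. Of 23 Rgs genes 6 fell, or 3 without PBS 24 h replicate 1 or 3 h replicate 2. Rgs4, expressed in mural cells, fell by 1.29 ± 0.13, Rgs12 by 1.66 ± 0.17, and Rgs19 rose by 1.02 ± 0.10.

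Purine and lipid mediator genes split by direction. Entpd1, the CD39 enzyme that breaks down extracellular ATP, fell by 0.70 ± 0.12 and P2ry14 by 0.93 ± 0.16, whereas the ATP-gated channel gene P2rx4 rose by 0.84 ± 0.13. In all 3 of 19 rose and 5 fell, with 3 falls when 24 h replicate 1, 24 h replicate 3 or 3 h replicate 1 was left out. Among eicosanoid genes 8 of 27 rose (5 without PBS 3 h replicate 3) and 3 fell. Alox5, the first enzyme of leukotriene synthesis, had 7.23, 7.34 and 7.90 at 24 h, against 6.54, 6.07 and 5.59 at 3 h (1.42 ± 0.23). Pla2g4a, which releases arachidonic acid, rose by 1.33 ± 0.16, and Ptgds, prostaglandin D synthase, fell by 1.03 ± 0.23.

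The IGF list held changes in both directions. Igf1r had 8.96, 9.12 and 9.12 at 24 h, against 10.19, 10.20 and 10.48 at 3 h (-1.22 ± 0.12, adjusted p = 5.85e-05 in limma). Igfbp6, a binding protein that prefers IGF2, had 7.72, 7.73 and 7.45 at 24 h, against 5.58, 5.81 and 5.94 at 3 h (1.85 ± 0.14). The receptor was lower and this binding protein higher on each 24 h array than on any 3 h array, as the naming rule required. Igfbp4 rose by 0.98 ± 0.18 and Igf1 by 0.55 ± 0.12, and Igf2 fell by 0.96 ± 0.15, so that 4 of 16 rose and 6 fell. In the VEGF, angiopoietin and tip cell list 5 of 28 rose and 4 fell. Those shares are 17.9% and 14.3%, near the 17.8% and 13.6% of the bright genes. Apln, given above, had the largest rise (4.05 ± 0.27). Angpt2, angiopoietin 2, which destabilises vessels, had 10.72, 10.07 and 10.46 at 24 h, against 8.73, 8.96 and 9.54 at 3 h (1.34 ± 0.22, adjusted p = 0.00158 in limma). Cxcr4, the Cxcl12 receptor, rose by 1.12 ± 0.12, and the endothelial receptor genes Tie1 (-0.77 ± 0.11) and Flt1 (-0.47 ± 0.08) fell. Guidance genes leaned lower, with 14 of 71 down and 3 up. Sema3c had 9.01, 9.54 and 9.26 at 24 h, against 10.41, 10.81 and 10.92 at 3 h (-1.44 ± 0.17), and its co-receptor family member Plxna2 fell by 1.10 ± 0.15, while Sema4a rose by 1.11 ± 0.15.

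Transporters changed one by one rather than as a family. Of 376 solute carriers 33 rose and 42 fell, shares of 8.78% and 11.2%, against 9.34% and 7.28% of all genes. Slc39a14, which imports zinc and iron, had 7.84, 7.94 and 7.81 at 24 h, against 5.70, 6.17 and 6.37 at 3 h (1.78 ± 0.15). Slc40a1, ferroportin, the iron exporter, had 7.97, 7.81 and 7.78 at 24 h, against 8.96, 9.11 and 9.13 at 3 h (-1.22 ± 0.09). Importer and exporter thus stood on opposite sides. The zinc exporter gene Slc30a1 fell by 1.02 ± 0.11, the zinc importer gene Slc39a6 rose by 0.81 ± 0.09, and the metallothionein gene Mt2 fell by 0.70 ± 0.13. In the whole metal list 7 of 41 rose (4 without PBS 24 h or 3 h replicate 3) and 9 fell. Slc19a3, a thiamine transporter, had 8.40, 8.83 and 8.59 at 24 h, against 10.07, 10.38 and 10.44 at 3 h (-1.69 ± 0.17), and Slc2a5, a fructose transporter that microglia express, fell by 1.34 ± 0.18.

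The mouse has a pair of genes for P-glycoprotein, the drug efflux pump of the barrier, and they moved in opposite directions. Abcb1b had 7.70, 7.73 and 7.79 at 24 h, against 6.47, 6.07 and 6.26 at 3 h (1.47 ± 0.12, adjusted p = 1.37e-05 in limma). Abcb1a, the form of brain endothelium, had 10.70, 11.04 and 10.74 at 24 h, against 11.60, 11.67 and 11.68 at 3 h (-0.82 ± 0.11, adjusted p = 0.000355 in limma). The groups did not overlap for either gene, as the naming rule required. The pair is similar in sequence, and cross-detection between their probe sets was not tested. Of 50 ABC transporters 7 rose, among them Abce1, a ribosome recycling factor (0.80 ± 0.13), and 6 fell. Both ABC shares lay between those of all genes (9.34% higher and 7.28% lower) and those of the bright genes (17.8% and 13.6%). Among 52 amino acid transporters 13 fell, such as the glutamate carrier Slc1a1 (-1.28 ± 0.11) and Slc6a20a (-0.95 ± 0.17), and 5 rose, such as the glutamine carrier Slc1a5 (1.18 ± 0.17). Mitochondrial carriers rose in 8 of 47 cases, Slc25a13 of the malate and aspartate shuttle among them (0.99 ± 0.14), and fell in 2 (median -0.04). The falls were 0 to 3 when single arrays were left out. Their share of rises was 17.02%, near the 17.8% of the bright genes. Potassium channels were called lower in 5 of 92 cases (3 without PBS 3 h replicate 2), a share of 5.43%, under the 7.28% of all genes. Among them was Kcna5, with 6.19, 6.70 and 5.65 at 24 h, against 8.11, 7.74 and 8.32 at 3 h (-1.88 ± 0.22). Connexins fell in 4 of 20 cases, but in 1 without PBS 24 h replicate 3 and in 2 without PBS 3 h replicate 1, and Gjc1 was the member that passed the naming rule (-0.80 ± 0.10).

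In the basement membrane the laminin chains changed unequally. Lama4, the alpha chain found along all vascular endothelium, had 9.41, 9.15 and 8.96 at 24 h, against 8.02, 8.43 and 8.19 at 3 h (0.96 ± 0.13, adjusted p = 0.000456 in limma). Lama2, the alpha chain of the outer, parenchymal layer, had 6.81, 6.40 and 6.67 at 24 h, against 7.18, 7.78 and 7.33 at 3 h (-0.80 ± 0.15). Lama3 (-1.21 ± 0.18) and Lamc3 (-0.97 ± 0.14) fell too, so that of 15 laminins and relatives 6 fell and 1 rose, or 2 without PBS 3 h replicate 2. Collagen chains moved little, with 1 of 44 higher (Col3a1, 0.70 ± 0.16) and 3 lower (Col14a1, -1.38 ± 0.11, among them). In the integrin list, which was narrowed after values were seen, most genes did not pass the test. The leukocyte chains Itgax (1.82 ± 0.26) and Itgal (1.54 ± 0.21) rose, and Itga1, a collagen receptor of the vessel wall, fell by 0.83 ± 0.12. In all 7 of 27 rose and 3 fell, with 5 falls without PBS 3 h replicate 3.

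Lists of inflammatory genes differed in their balance of rises and falls. Of 37 chemokine ligands 12 rose and 5 fell, with a median of 0.07. Ccl12, a monocyte attractant, had 11.86, 12.04 and 12.04 at 24 h, against 8.47, 8.16 and 7.58 at 3 h (3.91 ± 0.18, adjusted p = 1.18e-06 in limma). The ligands that fell included Cx3cl1, fractalkine, with 7.20, 7.08 and 6.89 at 24 h, against 8.47, 8.75 and 8.76 at 3 h (-1.61 ± 0.14), Cxcl11 (-2.01 ± 0.15) and Cxcl12, which vessels make constitutively (-1.03 ± 0.15). Among 25 chemokine receptors 6 rose, such as Ccr1 (2.24 ± 0.24) and the neutrophil receptor Cxcr2 (1.96 ± 0.31), and 1 fell, Ackr3, a scavenging receptor for Cxcl12 (-0.79 ± 0.11). The Serpina3 and serum amyloid list held 2 rises and 2 falls among 21 genes (median -0.10), or 1 fall without PBS 24 h replicate 1. With all arrays each share is 9.52%, against 9.34% higher and 7.28% lower among all genes.

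In several lists of innate cell genes more members rose than fell. Of 39 Fc receptors and C-type lectins 13 rose and 2 fell. Fcgr4, an activating receptor for IgG, had 8.91, 8.90 and 9.10 at 24 h, against 6.33, 5.96 and 5.34 at 3 h (3.09 ± 0.23), and Clec1a fell by 0.67 ± 0.12. Tlr1, a partner of Tlr2 in sensing bacterial lipoproteins, had 9.24, 9.34 and 9.56 at 24 h, against 7.50, 7.16 and 7.07 at 3 h (2.13 ± 0.14). Of 18 Toll-like receptors and adaptors 5 rose and 1 fell, or 0 fell without PBS 24 h replicate 1. The MS4A family rose in 7 of 19 cases and fell in none, with Ms4a6d at 8.31, 8.31 and 8.90 at 24 h, against 6.08, 5.72 and 5.51 at 3 h (2.74 ± 0.17). Scavenger receptors rose in 6 of 20 cases, Cd36 (2.42 ± 0.19) and Mrc1 (1.26 ± 0.20) among them, and fell in 2, or in 1 without PBS 24 h replicate 2. Among 18 cathepsins 5 rose and Ctsf fell (-0.98 ± 0.12). Antigen presentation genes gave 9 rises among 48, or 5 without PBS 24 h or 3 h replicate 3, and 3 falls. With all arrays those shares are 18.75% and 6.25%, against 17.8% and 13.6% of the bright genes and 9.34% and 7.28% of all genes. The rises are thus near the share of the bright genes. The falls were 1 without PBS 24 h replicate 3 or 3 h replicate 1 and 6 without PBS 3 h replicate 2, as many as the rises there. The medians of the cathepsin and antigen presentation lists were -0.07 and -0.03. H2-Ab1, a class II chain, had 10.13, 10.69 and 10.97 at 24 h, against 9.46, 9.09 and 8.65 at 3 h (1.53 ± 0.29).

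The cytokine lists held changes in both directions. Of 24 interleukin 1 family genes 8 rose and 3 fell. Il1b had 10.19, 10.38 and 11.20 at 24 h, against 7.95, 8.45 and 7.82 at 3 h (2.52 ± 0.26), and its natural antagonist Il1rn rose by 2.14 ± 0.29. The signalling receptor Il1r1 had 10.05, 10.53 and 10.24 at 24 h, against 11.07, 11.61 and 11.68 at 3 h (-1.19 ± 0.18). Irak2 and Irak3, genes of the IRAK family, fell by 1.60 ± 0.16 and 0.87 ± 0.14. In the interleukin 6 family 3 of 24 rose, Il6 (1.76 ± 0.27) and Lif (0.99 ± 0.21) among them, and 6 fell, the feedback inhibitor Socs2 (-1.11 ± 0.21) among them. TNF superfamily genes rose in 6 of 42 cases and fell in 6, or in 3 without PBS 24 h or 3 h replicate 3. With all arrays each share is 14.3%, against 17.8% higher and 13.6% lower among the bright genes and 9.34% and 7.28% among all genes. Tnfsf9, the 4-1BB ligand, had 8.46, 8.64 and 9.18 at 24 h, against 5.93, 5.49 and 6.35 at 3 h (2.83 ± 0.26), and Tnfrsf12a, the TWEAK receptor, fell by 0.80 ± 0.18. Among 51 cell death genes 12 rose and 4 fell. Casp1, the inflammasome caspase, had 8.03, 8.03 and 7.95 at 24 h, against 6.69, 6.83 and 6.87 at 3 h (1.21 ± 0.10), and the survival genes Bcl2l1 and Mcl1 fell by 0.97 ± 0.11 and 0.41 ± 0.09. Monocyte and border macrophage markers rose with these families in 9 of 11 and 4 of 8 cases (medians 1.95 and 0.52). Neutrophil markers rose in 4 of 15 cases, with a median of 0.03. The part of these cell types in the immune rises was not tested.

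The same interval in imatinib-treated mice gave a similar picture, and no gene's change was shown to differ between the treatments. In imatinib vessels 13.1% of genes were called, 7.76% higher and 5.32% lower at 24 h. Of the 5119 genes called in PBS vessels, 3111 were called the same way in imatinib vessels, 4963 had the same sign and 6 were called the opposite way. These contrasts share no array, but all arrays enter 1 estimate of the spread. The test of the difference, PBS change minus imatinib change, passed for 0 genes in limma, with a smallest adjusted p of 0.371, and 5.49% of genes had an unadjusted p under 0.05. With 2 imatinib arrays at 3 h, leaving out replicate 2 of that group gave 2 genes.

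Growth and replication genes rose in both treatments, in numbers that differed by list. Ribosome biogenesis genes rose in 51 of 57 cases in PBS vessels and in 48 in imatinib vessels, with medians of 0.83 and 0.79. Replication genes rose in 37 and 32 of 42 cases, with medians of 1.10 and 0.93. Mitochondrial ribosomal proteins rose in 57 and 42 of 75 cases, and cytosolic ribosomal proteins in 29 and 21 of 71. Proteasome subunits rose in 28 cases in PBS vessels and 31 in imatinib vessels, and aminoacyl-tRNA synthetases in 16 and 18. Kruppel-like factors fell in 10 and 11 of 17 cases. Vessel wall lists had these counts: arterial genes fell in 11 cases in PBS vessels and 5 in imatinib vessels, endothelial markers in 10 and 7, and pericyte markers in 8 and 0. The pericyte medians were -0.64 in PBS vessels and -0.12 in imatinib vessels. No member of these lists passed the test of the difference, and the imatinib contrast rests on 5 arrays against 6.

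The genes with the smallest p for the difference included globins. Hba-a2, an alpha globin, had 10.38, 10.57 and 10.87 at 24 h, against 10.00, 9.94 and 9.63 at 3 h in PBS vessels. In imatinib vessels it had 9.87, 9.84 and 10.21 at 24 h, against 10.46 and 10.67 at 3 h. The change was 0.75 in PBS vessels and -0.59 in imatinib vessels, a difference of 1.34 ± 0.23 (adjusted p = 0.564 in limma). Arnt2, a partner of bHLH-PAS factors, had 5.75, 5.62 and 5.82 at 24 h, against 6.30, 6.29 and 6.07 at 3 h in PBS vessels. In imatinib vessels its signals were 6.23, 5.99 and 5.90 at 24 h, against 5.35 and 5.46 at 3 h, and the difference between the changes was -1.13 ± 0.17 (adjusted p = 0.371 in limma). Cldn6 moved by -0.10 in PBS vessels and -1.57 in imatinib vessels at signals under the array median on every PBS array, and its difference of 1.47 ± 0.20 had the same adjusted p. Ano1, a chloride channel gene of smooth muscle and pericytes, fell in PBS vessels (-0.80 ± 0.11) and stood at -0.03 in imatinib vessels, and Dgat2, a triglyceride synthesis enzyme, rose in PBS vessels (0.71 ± 0.10) and stood at 0.00 in imatinib vessels, neither with a difference past the threshold.

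**Figure D5:**
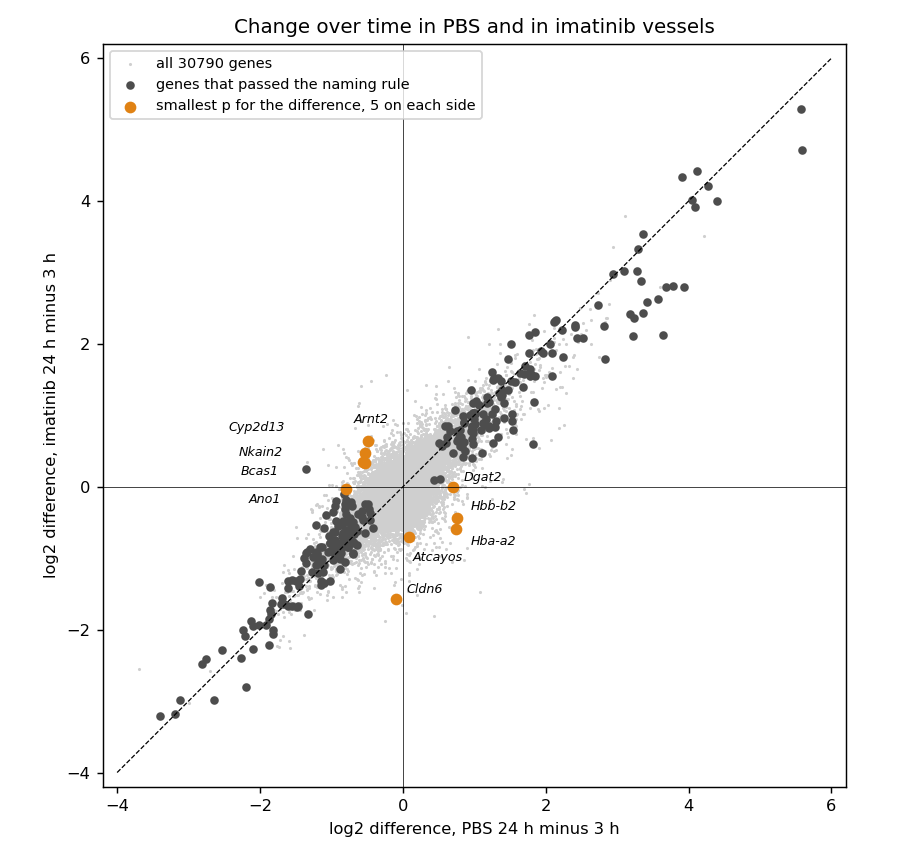
Each point is 1 gene at its log2 difference, 24 h minus 3 h, in PBS vessels (x axis) and in imatinib vessels (y axis), with the dashed line marking equal change. Genes that passed the naming rule were chosen by their PBS values, so their distance from the line is not compared. The 10 genes with the smallest p for the difference lie off it, all but Cldn6 (-1.57 in imatinib vessels) within 1 unit of 0 on both axes.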

How the data were processed

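Total RNA of brain vascular fragments was amplified, labelled with biotin and hybridised to arrays. Array type and genome build were not given in the sources used here. Per the submitters' processing notes, the authors deposited log2 values made with RMA in Affymetrix Expression Console. Their own columns of comparisons were not used. Of 33793 probe sets, 1591 without a symbol, 128 with several and 14 whose symbol had become a date were not used, and the brightest probe set stood for a gene, which left 30790 genes. A model with 4 group means on 11 arrays was fitted in limma 3.58.1 (R 4.3.3) with eBayes (7 residual and 4.37 prior degrees of freedom) and Benjamini-Hochberg adjustment over all genes, threshold 0.05, and was tested on simulated data. The number of arrays limits the precision. Replicate numbers were not used to pair arrays. The 79 gene lists (9 entries were not matched) and their members were chosen with earlier results of these data known, and the integrin list was narrowed after values were seen. The result of a list among them is not reported here. Genes are named where they passed the threshold with all arrays and without each array, did not overlap between the times, moved by no more than 1.5 times and had a signal above the array median at the higher time: the 24 largest rises and falls, up to 3 per direction in each list, else the smallest p, the 5 smallest p on each side for PBS change minus imatinib change, and Pecam1, Cldn5, Pdgfrb, Rgs5 and Acta2. Predicted genes and small RNAs were counted, not named by this rule. Promoter windows are RefSeq's of GRCm38.p6, read with Python 3.11.15. Alternatives were other normalization, probe set and variance settings, a filter on dim genes, a replicate block, the 6 PBS arrays alone and leaving out each array.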

Additional observations from a re-analysis of the deposited data

How the results depend on the processing

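The 5119 calls became 5606 with trend and robust estimation, 5797 with a filter on dim genes (16451 genes), 5106 after another quantile normalization, 5105 with the mean of probe sets, 5551 over all probe sets and 3948 with the 6 PBS arrays alone. Without single arrays the count lay between 3886 (without PBS 24 h replicate 3) and 4973, the rises between 2232 and 2812 and the falls between 1654 and 2161. Same-numbered PBS arrays did not deviate together (correlations of -0.034, 0 and -0.037), and the fit with the replicate block, which the design does not ask for, gave 4844 calls, 90.5% of the main calls among them. The imatinib count of 4027 lay between 2274 and 4233 without single arrays, lowest without imatinib 3 h replicate 2, and the count for PBS change minus imatinib change of 0 became 2 at most. Of the 304 named genes, Cldn6 (-0.10 with all arrays) turned its direction, with values between -0.21 and 0.03 when single arrays were left out, 0.03 without PBS 24 h replicate 1. List medians moved by more than the spread for 23 of 79 lists with the dim filter and for 8 with quantile normalization, where the G1 list turned to -0.04 and the keratin list to 0.01. Counts within lists without each array were chosen after the data were seen; single arrays decide the small ones. Signals near the lower quartile of an array limit dim genes: 107 genes called higher were below it at 3 h and 114 called lower were below it at 24 h.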

Other observations

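Small nucleolar RNA genes, which are not named by the rule above, were higher at 24 h in 30 of 107 cases and lower in 2, with a median of 0.39 in PBS vessels and 0.23 in imatinib vessels. These RNAs guide the modification and cleavage of ribosomal RNA, and many lie in introns of genes for ribosomal proteins and translation factors. Snord118, the U8 RNA of large subunit processing, had 9.38, 9.49 and 9.48 at 24 h, against 7.32, 6.91 and 6.80 at 3 h (2.44 ± 0.18, adjusted p = 7.48e-06 in limma). The count of rises lay between 23 and 33 without each array. Probe sets for such short RNAs can also detect the host transcript, which was not tested.

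Families in which most genes had a signal below the array median gave a view of the low end of the signal. Of 1384 olfactory and vomeronasal receptor genes 5 were called higher and 22 lower, and 74 had a signal above the array median. The falls were 10, 10 and 11 without PBS 24 h replicates 1, 2 and 3, and the rises were 3 without PBS 24 h replicate 1 or 3 or imatinib 24 h replicate 3 and 8 without PBS 3 h replicate 2. Olfr558, chosen for the smallest p, had 6.30, 6.64 and 6.63 at 24 h, against 7.87, 8.01 and 7.91 at 3 h (-1.41 ± 0.17). Its signals lay above the median of every PBS array, so this gene is not part of that low end. Of 98 keratin genes 1 was higher and 2 lower. Of 535 microRNA genes 5 were higher, or 9 without PBS 24 h replicate 1, and 16 lower, or 9 without PBS 24 h or 3 h replicate 1. The array reads their precursors, not the mature forms.

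The 6 genes called in opposite directions in PBS and imatinib vessels were Arnt2, Hba-a2, Cyp2d13, Olfr116, Mir5103 and Gm25272, singled out after their values were seen. None passed the test of the difference. Cyp2d13 had 3.46, 3.62 and 3.47 at 24 h, against 3.98, 4.03 and 4.12 at 3 h in PBS vessels, and 3.96, 4.29 and 3.76 at 24 h, against 3.55 and 3.51 at 3 h in imatinib vessels. These signals are near or below the lower quartile of the arrays.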
